A study of Mus musculus with 4 samples.

Results

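The genes described are the mammalian readers of N6-methyladenosine (m6A) that belong to the YTH and IGF2BP families, namely Ythdf1, Ythdf2, Ythdf3, Ythdc1, Ythdc2, Igf2bp1, Igf2bp2 and Igf2bp3. They were picked by exact gene symbol, which gave 8 genes and 28 RefSeq transcripts out of 25796 genes and 87526 transcripts. RNA came from epithelial cells of the mouse colon, and the 4 libraries are inputs of an m6A immunoprecipitation, sequenced without enrichment. A pair of libraries carries the genotype label WT and the other pair the label Ythdf1 KO. The altered part of Ythdf1, the strain, age and sex of the mice, and whether a group's libraries represent different animals were not given in the sources used here. The p-values therefore reflect the spread between these libraries alone, which may be technical. The 12 markers of colon epithelium were present in all 4 libraries.

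The m6A mark sits on the adenosines of many mRNAs and acts largely through proteins that recognise it. YTH proteins hold the methylated base in an aromatic pocket of the YTH domain, with YTHDF1, YTHDF2 and YTHDF3 in the cytoplasm, YTHDC1 in the nucleus and YTHDC2 carrying a helicase domain as well. IGF2BP proteins bind mRNA through KH domains, have been reported to stabilise m6A-marked transcripts, and are best known from fetal tissue and tumours. In the gut, YTHDF1 has been linked to the translation of Wnt pathway mRNAs in stem cells.

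Upstream sequences are shown for 3 readers with a single listed transcript, Ythdf1 as the gene named in the genotype label, Ythdf2 as the paralogue whose WT libraries lay furthest apart, and Igf2bp2 as an IGF2BP family member. They are the 250 bases before the transcription start from RefSeq (GRCm38.p6), read 5′ to 3′ on the gene's strand, at chr2:180920937-180921186, chr4:132212257-132212506 and chr16:22163300-22163549, all on the minus strand. Capitals mark the GC box (GGGCGG or its reverse complement CCGCCC) and the E-box CACGTG.
Ythdf1: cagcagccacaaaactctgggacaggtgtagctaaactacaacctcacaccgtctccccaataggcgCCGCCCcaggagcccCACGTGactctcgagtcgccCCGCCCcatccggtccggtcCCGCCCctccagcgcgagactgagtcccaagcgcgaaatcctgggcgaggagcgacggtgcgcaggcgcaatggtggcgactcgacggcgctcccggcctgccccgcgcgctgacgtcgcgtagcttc
Ythdf2: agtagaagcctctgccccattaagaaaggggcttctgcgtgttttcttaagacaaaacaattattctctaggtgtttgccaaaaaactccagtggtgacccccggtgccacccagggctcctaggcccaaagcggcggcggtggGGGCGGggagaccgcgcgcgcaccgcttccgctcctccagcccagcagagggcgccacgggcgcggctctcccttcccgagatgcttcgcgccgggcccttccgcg
Igf2bp2: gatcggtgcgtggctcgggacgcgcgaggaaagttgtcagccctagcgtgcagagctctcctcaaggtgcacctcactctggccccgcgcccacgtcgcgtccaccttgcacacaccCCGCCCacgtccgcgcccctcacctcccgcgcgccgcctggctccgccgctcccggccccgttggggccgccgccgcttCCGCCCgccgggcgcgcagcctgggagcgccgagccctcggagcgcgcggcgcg
The table of promoters held 5 of the 8 readers, the others in it being Ythdc1 and Igf2bp3. The Ythdf1 window held 30 CG dinucleotides, that of Ythdf2 22 and that of Igf2bp2 40, where the median of 32851 mouse windows of the same length was 6. GC boxes numbered 3 in Ythdf1, 1 in Ythdf2 and 2 in Igf2bp2, and 32.7% of all windows held at least 1. The E-box occurred in the Ythdf1 window and in neither of the other printed ones, and 6.02% of all windows held it. Of the windows not printed, that of Igf2bp3 held it and that of Ythdc1 did not. These matches describe the letters only, and no measurement of transcription or binding at these sites was used here.

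Values are normalised read counts, that is, reads on a transcript divided by a size factor per library. They depend on transcript length, which the table does not give, so levels were compared between libraries and not between genes. A gene is represented by its most abundant transcript, backed by 21686140 to 30951138 reads per library over all genes. Differences were tested with limma-trend on log2(value + 1) over 23116 genes, with Benjamini-Hochberg adjustment and a threshold of 0.05. As RNA is from bulk samples, fewer cells of a type and less RNA per cell cannot be told apart.

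Among the readers, the means of the 3 YTHDF genes were higher and those of the 3 IGF2BP genes lower in the libraries labelled Ythdf1 KO, while Ythdc1 and Ythdc2 lay close to WT, and none of these differences passed the test. In limma-trend 0 of the 8 readers were called, against a background of 0% of all genes. At an unadjusted p under 0.05 there were 2, Ythdf1 and Igf2bp1, where the share over all genes was 5.44% (1.92% higher, as for Ythdf1, and 3.52% lower, as for Igf2bp1). Both libraries labelled Ythdf1 KO lay above both WT libraries for Ythdf1 and Ythdf3, a placement seen in 14.3% of all genes tested, and below them for Igf2bp1, a placement seen in 21.4%. The 3 of 8 readers without overlap thus stand against 35.7% of all genes, close to the background. DESeq2 on recovered reads called Ythdf1 alone among the readers, with 6.49% of all genes called, and edgeR called 0. The median log2 difference was -0.07 over the readers and -0.09 over all genes tested.

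**Figure D1:**
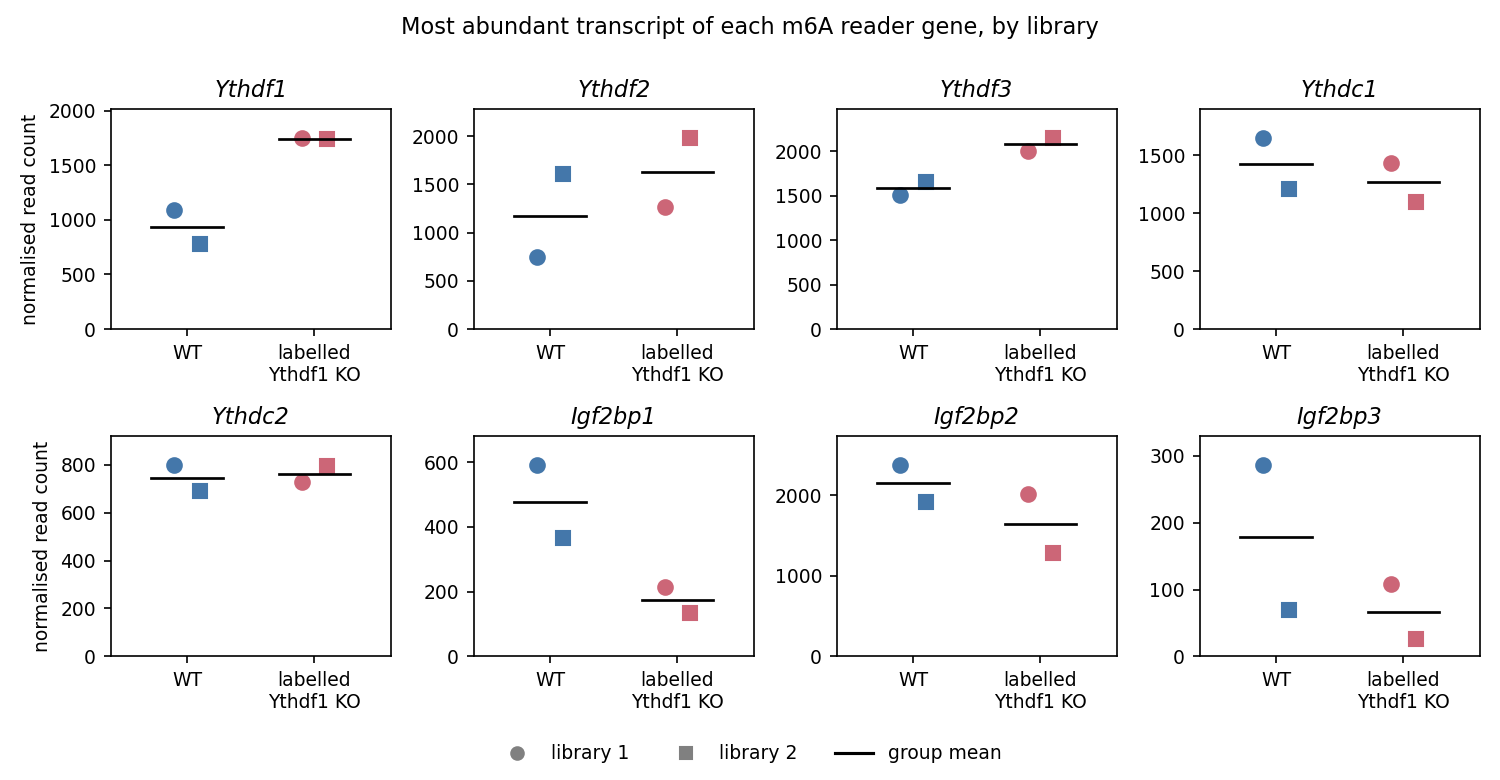
Normalised read count (vertical axis, from 0) of the most abundant transcript of each reader gene in the 2 WT libraries (blue) and the 2 libraries labelled Ythdf1 KO (red), with a bar at each group mean. The groups are apart for Ythdf1, Ythdf3 and Igf2bp1 and overlap for the other 5 genes.

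Ythdf1 encodes a cytoplasmic reader reported to promote translation of m6A-marked mRNA, and it is the gene that the genotype label says is lost. Its only listed transcript, NM_173761.3 (gene ID 228994, mm10 chr2:180904377-180920936, minus strand), stood at 1088 and 775 in the WT pair, and at 1752 and 1737 in the pair labelled Ythdf1 KO. The latter pair lay close together and above both WT libraries. The means were 932 ± 221 and 1744 ± 10.5 (SD, n = 2 each), giving a ratio of 1.87. These levels rest on 768 to 2100 reads per library, and the exact Poisson intervals of 95% reached at most 1159 in WT and no lower than 1664 in the other group, which covers counting error only. By limma-trend this came to a log2 difference of 0.92 ± 0.28 (SE), with an interval from 0.25 to 1.60 and an adjusted p = 0.759. By contrast q was 0.0145 in the authors' deposited table, where 4.47% of genes had q under 0.05 by their most abundant transcript (1.24% higher and 3.23% lower), and Ythdf1 was the only reader among them. DESeq2 gave an adjusted p = 0.011, and the alternatives ranged up to 0.989. The target was therefore not lower under the KO label. A count over the whole transcript does not show which exons the reads came from or whether protein was made.

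Ythdf2 encodes the reader that brings the CCR4-NOT deadenylase to marked mRNA and so speeds its decay. NM_145393.4 (gene ID 213541, mm10 chr4:132184916-132212256, minus strand) stood at 745 and 1609 in the WT pair, against 1269 and 1984 in the pair labelled Ythdf1 KO. The groups overlapped, and within each group the library numbered 2 was the higher. The WT libraries differed by far more than counting error, with exact Poisson intervals of 689 to 804 and 1531 to 1690.3. The means were 1177 ± 611 and 1626 ± 505 (SD, n = 2 each), and the log2 difference of 0.53 had an interval from -0.52 to 1.59 (limma-trend adjusted p = 0.819). Without WT 1 the difference was -0.02.

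Ythdf3 encodes the cytoplasmic reader described as working with both of its paralogues. Its main transcript XM_006535442.3 (gene ID 229096, mm10 chr3:16183141-16217037, plus strand) stood at 1509 and 1655 in the WT pair, against 2005 and 2151 in the pair labelled Ythdf1 KO. The groups did not overlap, and the spread inside each was small, with means of 1582 ± 103 and 2078 ± 103 (SD, n = 2 each). The ratio was 1.31 and the log2 difference 0.39, with an interval from -0.13 to 0.92 (limma-trend adjusted p = 0.762). All 6 listed Ythdf3 transcripts lay above both WT libraries in both others, with ratios between 1.27 and 1.39, but isoforms count shared reads again and are not separate evidence. The curated coding transcript NM_172677.3 held 93.8% of the main transcript's value in WT 1, 97.1% in WT 2, and 98.5% and 99.8% in the pair labelled Ythdf1 KO. In the authors' deposited table the q-values of the 6 transcripts ran from 0.193 to 0.452.

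**Figure D2:**
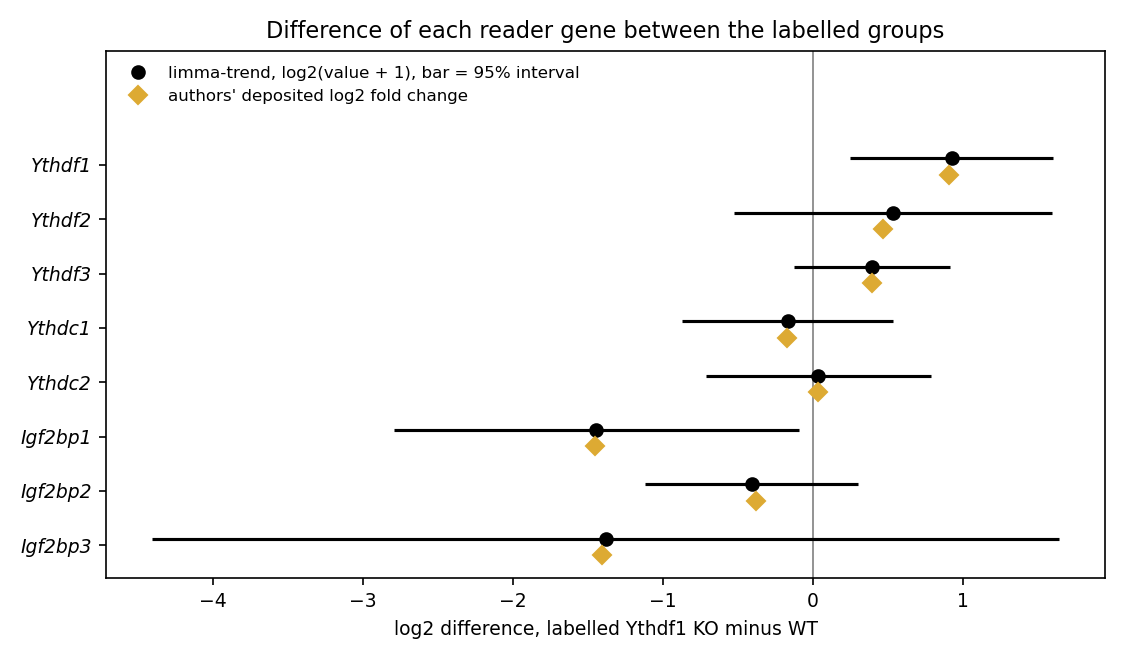
Log2 difference between the libraries labelled Ythdf1 KO and WT (horizontal axis) for each reader gene, from limma-trend with its 95% interval (black) and from the authors' deposited table (yellow). The intervals of Ythdf1 (0.25 to 1.60) and Igf2bp1 (-2.79 to -0.10) leave out 0 before adjustment over all genes, and those of the other 6 genes include it.

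Ythdc1 encodes the nuclear reader, which acts on splicing and nuclear export and is known for roles in chromatin-linked RNA. Its most abundant listed transcript, the non-coding model XR_389269.3 (gene ID 231386, mm10 chr5:86803980-86836659, plus strand), stood at 1650.1 and 1205 in the WT pair, against 1431 and 1100.1 in the pair labelled Ythdf1 KO. The groups overlapped, and here the library numbered 1 was the higher in each. The means were 1428 ± 314 and 1266 ± 234 (SD, n = 2 each), with a log2 difference of -0.17 and an interval from -0.87 to 0.54 (limma-trend adjusted p = 0.928). The difference was 0.06 without WT 1 and 0.02 without Ythdf1 KO 2. All 11 listed transcripts had ratios under 1, from 0.83 to 0.939, and the q-values in the authors' deposited table were 0.698 to 0.954.

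The transcripts of Ythdc1 did not follow each other in every library. The curated coding transcript NM_177680.3 stood at 1187 and 892 in the WT pair, against 1006 and 947 in the pair labelled Ythdf1 KO. This was 71.9%, 74.0% and 70.3% of the main transcript in WT 1, WT 2 and Ythdf1 KO 1, and 86.1% in Ythdf1 KO 2. The model XM_006534867.3, which ends earlier on the chromosome, was the only one of the 11 below both WT libraries in both others. It held 68.6% and 92.3% in the WT libraries and 71.7% and 82.6% in the others, so the spread within WT exceeded the difference between groups. Values of different isoforms overlap in their reads, and these shares were not tested.

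Ythdc2 encodes an RNA helicase with a YTH domain, best known for meiotic entry in the mouse germ line. Its most abundant listed transcript, the non-coding model XR_385990.3 (gene ID 240255, mm10 chromosome 18, 44821774 to 44889715), stood at 799 and 693 in the WT pair, against 730.0 and 797 in the pair labelled Ythdf1 KO. The groups overlapped fully in a narrow range, and the means were 746 ± 75.3 and 763 ± 47.0 (SD, n = 2 each). The interval of the difference still ran from 0.61-fold to 1.72-fold (limma-trend adjusted p = 1.0), so changes inside those limits are compatible with these values. They are not limits of detection, as the larger differences of Ythdf1 and Igf2bp1 were not called either. Its sign turned without WT 2 (-0.07) and without Ythdf1 KO 2 (-0.03). The coding transcript NM_001163013.1 stood at 630.1 and 519 in the WT pair, against 587 and 692 in the pair labelled Ythdf1 KO. The third transcript, XM_006525915.2, which starts further along the gene, held 53.7% and 47.4% of the main value in the WT pair, and 60.0% and 50.1% in the pair labelled Ythdf1 KO.

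**Figure D3:**
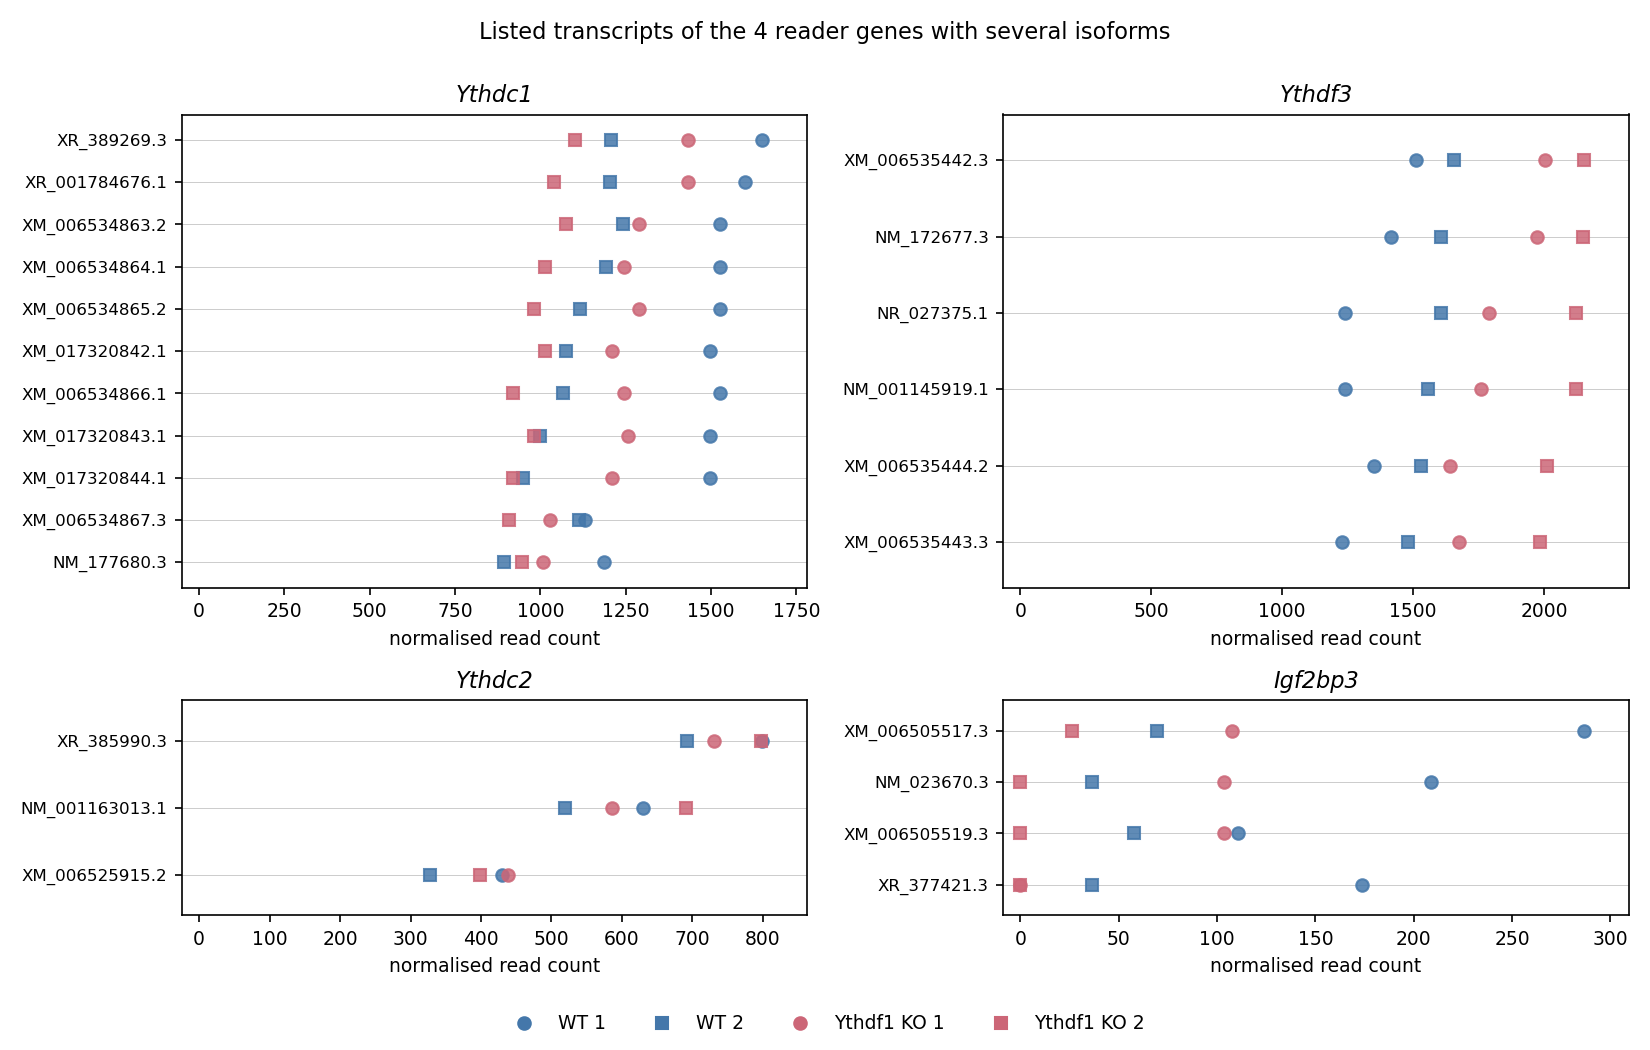
Normalised read count (horizontal axis) of every listed transcript of the 4 readers with several isoforms, in WT 1 and 2 (blue circle and square) and in Ythdf1 KO 1 and 2, as labelled (red circle and square). All 6 Ythdf3 transcripts show both red points to the right of both blue points, while the red and blue points of Ythdc1 and Ythdc2 overlap for every transcript but 1 (XM_006534867.3 of Ythdc1), and 3 of 4 Igf2bp3 transcripts stand at 0 in Ythdf1 KO 2.

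Igf2bp1 encodes an mRNA-binding protein that is abundant in fetal tissue and protects target mRNAs from decay. NM_009951.4 (gene ID 140486, mm10 chr11:95957163-96005944, minus strand) stood at 591 and 365 in the WT pair, against 214 and 135 in the pair labelled Ythdf1 KO. Both of the latter lay below both WT libraries, on 163 and 221 reads against 362 and 524. The means were 478 ± 159 and 175 ± 56.2 (SD, n = 2 each), giving a ratio of 0.365. The log2 difference was -1.45 ± 0.55 (SE) with an interval from -2.79 to -0.10 (limma-trend adjusted p = 0.759). It was also -1.45 in the authors' deposited table, with q = 0.0807. With single libraries left out it lay between -1.79 and -1.10. As the groups do not overlap, leaving out 1 library could not turn its sign.

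Igf2bp2 encodes the family member kept in adult tissue, where it is known from work on metabolism. NM_183029.2 (gene ID 319765, mm10 chr16:22059009-22163299, minus strand) stood at 2376 and 1920.3 in the WT pair, against 2013 and 1284 in the pair labelled Ythdf1 KO. Ythdf1 KO 2 was the lowest library, while Ythdf1 KO 1 lay between the WT libraries. The means were 2148 ± 322 and 1648 ± 515 (SD, n = 2 each), giving a ratio of 0.767, and the log2 difference of -0.41 had an interval from -1.12 to 0.30 (limma-trend adjusted p = 0.815). Without Ythdf1 KO 2 it was -0.09, so the size rests on that library.

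Igf2bp3 encodes a further oncofetal member of the family. Its main transcript, the model XM_006505517.3 (gene ID 140488, mm10 chr6:49085218-49214232, minus strand), stood at 286 and 69.7 in the WT pair, against 108 and 26.5 in the pair labelled Ythdf1 KO. The groups overlapped, the WT libraries alone being further apart than the group means of 178 ± 153 and 67.0 ± 57.4 (SD, n = 2 each). These values rest on 254 and 69 reads in WT and on 111 and 32 in the others. The log2 difference of -1.38 had an interval from -4.41 to 1.64 (limma-trend adjusted p = 0.83) and was -0.37 without WT 1.

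The further isoforms of Igf2bp3 were each at 0 in at least 1 library. The curated transcript NM_023670.3 stood at 209 and 36.3 in WT, at 104 in Ythdf1 KO 1 and at 0 in Ythdf1 KO 2. The short model XM_006505519.3, which covers the 3′ end of the gene, had the same 107 reads as NM_023670.3 in Ythdf1 KO 1 and was also at 0 in Ythdf1 KO 2. The model XR_377421.3 stood at 174 and 36.3 in the WT pair and had no reads under the KO label, at least 38.9-fold lower against a floor of 3 reads per library averaged over the group (64.4-fold on WT 1 alone and 13.5-fold on WT 2 alone). The authors' deposited table gave this transcript q = 0.00693, the only call among the 20 further transcripts of the readers, where 3.67% of all transcripts had q under 0.05, and limma-trend on single transcripts gave an adjusted p = 0.851. An uncharacterised gene that overlaps Igf2bp3 on the same strand, LOC102642435, stood at 121 and 20.2 in WT and likewise at 0 in both others. Values of 0 were more frequent under the KO label in general. Main transcripts at 0 numbered 3633 and 3370 of 25796 in the WT pair, against 5240 and 5102 in the pair labelled Ythdf1 KO. Malsu1 overlaps Igf2bp3 on the opposite strand. How reads of overlapping genes were assigned, and whether strand was used, were not given in the sources used here, so values of Igf2bp3 isoforms are uncertain. No other reader overlapped a listed gene.

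Markers of cells other than epithelium were present in every library, and their sums are given beside the IGF2BP values. The 9 leukocyte markers, all listed, summed to 1416 and 1115 in the WT pair, against 749 and 645 in the pair labelled Ythdf1 KO. Of the 9, 3 lay below both WT libraries and 0 above, against 21.4% and 14.3% of all genes tested. The share below was 27.6% among genes with a mean under 100 and 22.3% among those from 100 to 500. The leukocyte markers fall in both classes. Lyz2, a macrophage lysozyme, was at 0 in both libraries labelled Ythdf1 KO, where more genes were at 0 than in WT. Ptprc, the pan-leukocyte antigen, was above 0 in all 4. Ptprc stood at 666 and 281 in the WT pair, against 253 and 118 in the pair labelled Ythdf1 KO. The leukocyte markers did not all move alike, and 2 of the 9 had a log2 difference above 0. Csf1r was highest in Ythdf1 KO 1, at 256 and 173 in WT against 312 and 101. Itgam (142 and 222 against 65.0 and 242) and Cd79a (0 and 49.5 against 0 and 72.0) were highest in Ythdf1 KO 2. The 10 listed markers of stroma, muscle, vessels and nerve summed to 1587 and 3252 in the WT pair, against 1642 and 1065 in the pair labelled Ythdf1 KO, and these sums overlapped. Of the 10, 4 lay below and 0 above, against 21.4% and 14.3% of all genes, and none was at 0. The 12 epithelial markers summed to 975084 and 905877 against 1021891 and 753419, with 2 above and 3 below, and the goblet cell mucin Muc2 made up 402153 of the last sum. Among the epithelial markers, Epcam, Cdh1, Krt8, Vil1, Cdx1 and Slc26a3 were highest in Ythdf1 KO 2, and Cdx2, Car1 and Muc2 were lowest there. Krt18 was highest in Ythdf1 KO 1. Car1, a carbonic anhydrase of colonocytes, lay below both WT libraries with a ratio of 0.53, and was the 1 epithelial marker with an unadjusted p under 0.05 (limma-trend adjusted p = 0.759). Of all genes 5.44% had such an unadjusted p. Igf2bp1 and Igf2bp3 were lowest in Ythdf1 KO 2, as were the leukocyte, stroma and epithelial sums alike. Igf2bp1, Igf2bp3, Ptprc and the leukocyte sum were highest in WT 1. The stroma sum was highest in WT 2 and the epithelial sum in Ythdf1 KO 1. The part of cells other than epithelium in the IGF2BP values was not tested.

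Ratios between readers inside a library do not depend on that library's size factor. Ythdf1 over Ythdc1 was 0.659 and 0.643 in the WT pair, against 1.22 and 1.58 in the pair labelled Ythdf1 KO. Ythdf1 over Ythdf3 was 0.721 and 0.469 against 0.874 and 0.808, so Ythdf1 was also the higher of these paralogues relative to WT. Ythdf1 over Ythdf2 overlapped, at 1.46 and 0.482 against 1.38 and 0.876. Igf2bp1 over Igf2bp2 was 0.249 and 0.190 in the WT pair, against 0.106 and 0.105 in the pair labelled Ythdf1 KO, without overlap. Ythdf1 over Igf2bp1, the readers with the smallest p in each family, was 1.84 and 2.12 against 8.18 and 12.9. Of all 28 pairs of readers, 16 had ratios that did not overlap between the groups. The share among pairs of all genes was not computed, so this count has no background to be read against. A ratio of a gene placed above both WT libraries to one placed below them cannot overlap. The ratios share genes and were not tested, and since lengths differ a ratio has meaning only between libraries.

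**Figure D4:**
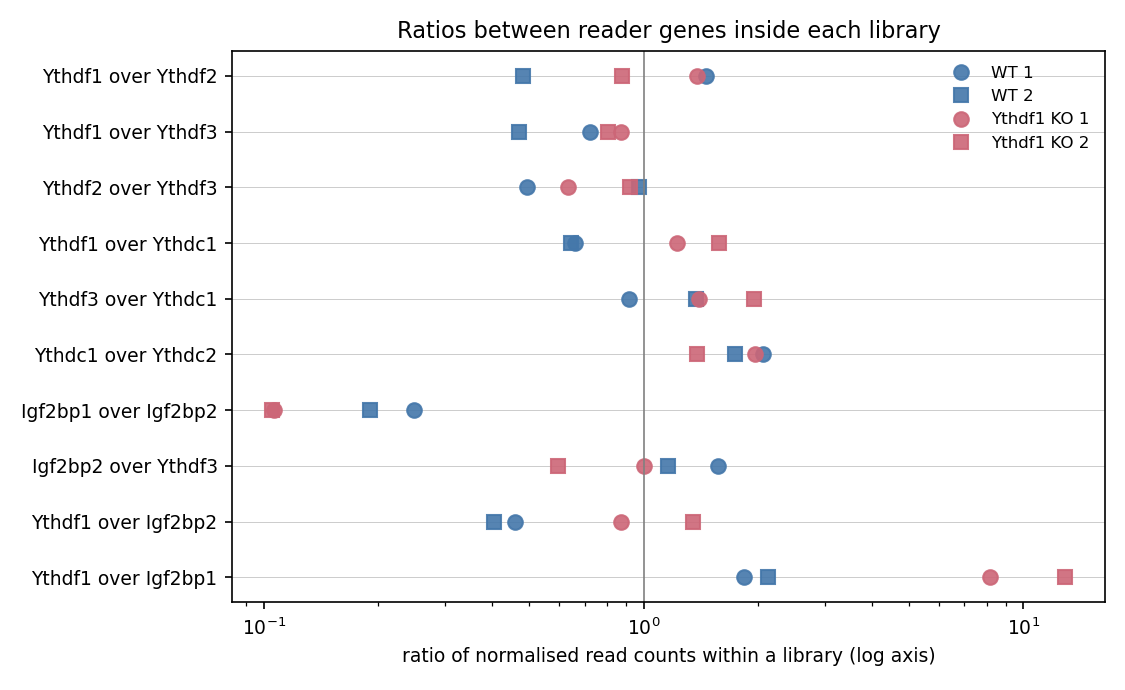
Ratio of normalised read counts of 10 pairs of readers within each library (log axis), WT in blue and the libraries labelled Ythdf1 KO in red. The ratio of Ythdf1 to Igf2bp1 lies at 1.84 and 2.12 in the WT pair, against 8.18 and 12.9 in the pair labelled Ythdf1 KO, and the ratios of Ythdf1 to Ythdf2, Ythdf2 to Ythdf3 and Ythdc1 to Ythdc2 overlap.

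None of the other m6A pathway genes listed was called by limma-trend. Of the m6A methyltransferases and their subunits 0 of 13 passed (and 0 at an unadjusted p under 0.05), with 2 above both WT libraries and 1 below, against 14.3% and 21.4% of all genes, and a median log2 difference of 0.06. Cbll1, a subunit of the writer complex, had the smallest p in that list, at 513 and 723 in the WT pair, against 249 and 418 in the pair labelled Ythdf1 KO, a ratio of 0.54. Mettl16, which methylates U6 and the Mat2a mRNA, stood at 329 and 172 in the WT pair, against 354 and 524 in the pair labelled Ythdf1 KO. The catalytic subunit Mettl3 overlapped between groups, at 498 and 298 against 492 and 695, as did the subunit Zc3h13, at 1808 and 2016 against 1186 and 1870.2.

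Both demethylases of m6A lay above WT, and 1 of the 2, Alkbh5, had an unadjusted p under 0.05. The share over all genes was 5.44% (1.92% higher, as for Alkbh5). Alkbh5 stood at 4630.3 and 5096 in the WT pair, against 7040.5 and 6507 in the pair labelled Ythdf1 KO, a ratio of 1.39 with means of 4863 ± 329 and 6773 ± 378 (SD, n = 2 each). In limma-trend its log2 difference of 0.48 had an adjusted p = 0.759, and the authors' deposited table gave q = 0.0147. Fto stood at 707 and 962 in the WT pair, against 1072 and 1517 in the pair labelled Ythdf1 KO, a ratio of 1.55 (limma-trend adjusted p = 0.759). The placement above both WT libraries is that of 14.3% of all genes, and of 22.7% of genes with a mean of 500 or more, as both have. Alkbh5 was the only gene with q under 0.05 in the authors' deposited table among the pathway lists other than the readers. Of all genes 4.47% had such a q (1.24% higher), so 1 call in these lists does not exceed the background.

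Of 10 other proteins reported to bind m6A RNA, 3 lay above both WT libraries and 1 below, against 14.3% and 21.4% of all genes. All 10 had a mean of 500 or more, a class where 22.7% lay above and 12.8% below. The median log2 difference was 0.17, with 0 calls in limma-trend and 0 at an unadjusted p under 0.05. Fmr1, the fragile X protein, stood at 1009.9 and 907 against 1107 and 1503, and Elavl1, which stabilises AU-rich mRNAs, at 1234 and 1522 against 1562 and 1936. Prrc2a stood at 17428 and 17295 in the WT pair, against 18957 and 19014 in the pair labelled Ythdf1 KO, a ratio of 1.09 with little spread. Lrpprc, a mitochondrial RNA-binding protein, lay below, at 1753 and 1803 against 1535 and 1379. Partners of the readers had 5 of 14 above and 2 below (14.3% and 21.4% of all genes, and 22.7% above among genes with a mean of 500 or more), a median log2 difference of 0.19 and 0 calls (0 at an unadjusted p under 0.05). Among them Nxf1, the mRNA export receptor that works with YTHDC1, stood at 1720.0 and 1695 in the WT pair, against 2129 and 2601 in the pair labelled Ythdf1 KO, and Cnot1, the scaffold that YTHDF2 recruits, at 6439 and 8047 against 9088 and 8344. G3bp1, a stress granule protein, stood at 2164 and 2471 against 2653 and 3137. Meioc, the germ line partner of YTHDC2, stood at 36.1 and 17.2 in WT and was at 0 in both others, where more genes were at 0.

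Reported targets of YTHDF1 or IGF2BP proteins were also tested for their RNA level. Of 13 genes, 1 lay above both WT libraries and 1 below, against 14.3% and 21.4% of all genes, with a median log2 difference of 0.15 and 0 calls in limma-trend (0 at an unadjusted p under 0.05). Wnt6 stood at 39.5 and 45.4 in the WT pair, against 0 and 1.65 in the pair labelled Ythdf1 KO, the latter value being 2 reads. Actb, which chicken IGF2BP1 was first shown to localise, lay above both WT libraries, with means of 100811 ± 4884 and 111869 ± 5887 (SD, n = 2 each), giving a ratio of 1.11. Myc, an mRNA that IGF2BP1 stabilises, overlapped, at 630.1 and 904 against 878 and 1328. Fzd9, a Wnt receptor, stood at 343 and 1.01 in WT, the latter value being 1 read, so the WT libraries differ too widely for a group comparison. Translation, the step at which YTHDF1 is reported to act, is not measured by these libraries.

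**Figure D5:**
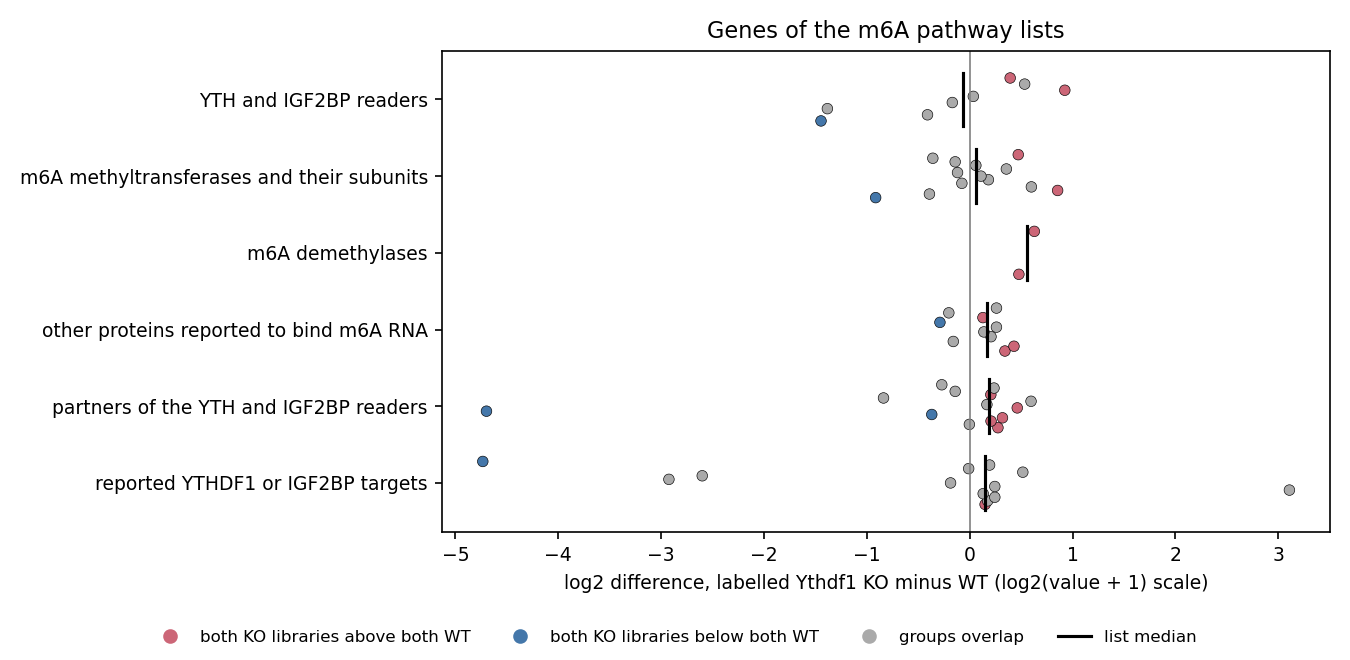
Log2 difference between the libraries labelled Ythdf1 KO and WT (horizontal axis) for each gene of 6 m6A lists, red where both labelled KO libraries lie above both WT libraries, blue where both lie below, grey where they overlap, with a black line at the list median. Medians lie between -0.07 for the readers and 0.55 for the 2 demethylases. The lowest points are Meioc and Wnt6, both at or near 0 in the libraries labelled Ythdf1 KO.

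Genes with the most similar profile over the 4 libraries were found by Euclidean distance between log2(value + 1) profiles centred on their mean, among 13824 genes with a mean of at least 100. For Ythdf1 these were Socs5, Hist1h3e and Ext1, at distances of 0.111, 0.121 and 0.139. For Ythdf2 they were Cenpc1, Nme3 and Mcm7 (0.0649, 0.0748 and 0.0925), and for Ythdf3 Tuba1b, Myl12b and Fuk (0.0227, 0.0295 and 0.0398). For Ythdc1 they were Tbc1d5, C530008M17Rik and Stx12 (0.0448, 0.0602 and 0.0653), and for Ythdc2 Mical2, Rplp2 and Dek (0.0158, 0.0187 and 0.0277). For Igf2bp1 they were Poln, Loxl4 and Gnaz (0.107, 0.115 and 0.14), and for Igf2bp2 Auts2, Rusc2 and Afmid (0.0226, 0.0497 and 0.0565). Igf2bp3 had the most distant neighbours of the 8, Ttyh1, Zfp329 and Ppp1r3e (0.312, 0.354 and 0.385). None of the nearest genes named for a reader was another reader. With 4 libraries such likeness is a description of these values only.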

How the data were processed

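Input RNA of an m6A immunoprecipitation from mouse colon epithelial cells was measured in 4 libraries, 2 with the genotype label WT and 2 with Ythdf1 KO. Per the submitters' processing notes the build was mm10 and the tools included Bowtie2 2.2.5 and CASAVA 1.8, deepTools 3.3.0 and HOMER 4.10, MACS2 2.1.0 and SAMtools 1.3.1. No role is attached to them, and the counting program was not given in the sources used here.

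The deposited signal per transcript is a count divided by a size factor: 100% of the values in each library were, within 0.001, whole multiples of what 1 read is worth there. The authors' deposited log2 fold change, p-value and q-value are named as theirs where printed. The most abundant transcript per gene was taken, and genes reaching 1 in 2 or more libraries were tested. The model, limma 3.58.1 under R 4.3.3 with trend and robust options, was fitted to log2(value + 1) and held only the genotype label. The plan had not listed size-factor-normalised counts by name, and they were handled as normalised values. The fit was tested on simulated data with changes larger than those of the readers' main transcripts, which does not show its power for differences of their size. Count tests on recovered reads (edgeR 4.0.16, DESeq2 1.42.0), other units per gene, filters, scalings and each library left out were alternatives.

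The readers and the gene lists were chosen with earlier results of these data known. Named genes are all readers, the genes with the 4 smallest p per m6A pathway list, and the 3 nearest profiles per reader. LOC102642435 and Malsu1, which overlap Igf2bp3, were named after their values were seen. So were the markers Lyz2, Ptprc, Csf1r, Itgam, Cd79a, Muc2, Epcam, Cdh1, Krt8, Krt18, Vil1, Cdx1, Cdx2, Slc26a3 and Car1. Of 92 list entries, 90 matched by symbol, 1 (Virma) through its RefSeq gene ID and 1 was not listed in the table. Fold changes on the log2(value + 1) scale understate the change of genes low in all libraries, and where 1 library is at or near 0 they can exceed, or differ in sign from, the ratio of group means.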

Additional observations from a re-analysis of the deposited data

How the results depend on the processing

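In the limma-trend fit 0 of 23116 genes were called, with 1257 at an unadjusted p under 0.05. Limma without a trend called 524 genes and none of the readers, and DESeq2 on recovered reads called 1431 genes and 1 reader, Ythdf1, at a log2 difference of 0.92. Between 0 and 36 genes were called when single libraries were left out (2 without WT 1, 6 without WT 2 and 36 without Ythdf1 KO 1), and 0 readers in each case. In those fits the lone library of a group is assumed to vary like the other group. The cause of these differences was not tested. The signs of Ythdf1, Ythdf3 and all 3 IGF2BP genes were kept in the 15 alternatives. For Ythdf1, Ythdf3 and Igf2bp1, whose groups do not overlap, leaving out 1 library could not turn the sign. Settings that change only the trend, the filter or the block leave the log2 difference as it was. The 15 are thus not separate evidence. With single libraries left out, the log2 difference of Ythdf2 ranged from -0.0205 (no WT 1) to 1.09, that of Ythdc1 from -0.395 to 0.0577 (positive when WT 1 or Ythdf1 KO 2 was dropped, 0.0209 for the latter), and that of Ythdc2 from -0.0675 (no WT 2; -0.0273 when Ythdf1 KO 2 was dropped) to 0.139. Quantile normalisation turned the sign of Ythdc2 to -0.00035. With the replicate number as a block 0 genes and 0 readers were called, with 1760 genes at an unadjusted p under 0.05. Whether the numbers pair the samples was not given in the sources used here. The difference between library 1 and 2 of WT and that of the other group correlated at -0.02 over 13825 genes. This shows no common shift between the numbers over all genes and does not settle whether samples were paired. Depth limits Igf2bp3 most, with 32 to 254 reads on its main transcript.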

Other observations

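Where the readers lie among all genes depends on level. Of 7431 genes with a mean of 500 or more, which include all the YTH readers and Igf2bp2, 22.7% had both libraries labelled Ythdf1 KO above both WT libraries and 12.8% below, with a median log2 difference of 0.07. Of 6393 genes with a mean from 100 to 500, which include Igf2bp1 and Igf2bp3, 11.9% lay above and 22.3% below, with a median of -0.22. Of 9292 genes under 100, 9.35% lay above and 27.6% below, with a median of -0.68. The readers that lay above WT are thus in the class where that was more frequent, and Igf2bp1 in a class where lying below was. The part of level in the values of single readers was not tested.

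Genomic span showed no such order among genes averaging 100 or more. The median log2 difference was 0.00032 for 6796 genes under 20 kb, the class of Ythdf1, and -0.03 for 1583 genes of 100 kb or more, the class of Igf2bp2 and Igf2bp3.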
